A study of Mus musculus with 36 samples.

Results

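The milk protein genes described here were 4 casein genes (Csn1s1, Csn1s2a, Csn2 and Csn3), the whey genes Wap and Lalba, and Glycam1 and Btn1a1, whose products are secreted with milk or wrapped around its fat. They were chosen by name, with earlier results of these data known, and were found by symbol, and all 8 were among the 21650 genes of the deposited expression table. Another casein of the table, Csn1s2b, was counted with the other milk proteins and scored between -1.68 and -0.725 in all libraries. RNA-seq had been done on 36 libraries in 12 groups of 3. These were tumors grown from 4T1 cells in BALB/c mice, tumors grown from Py230 cells in C57BL/6 mice, and glands of BALB/c and of C57BL/6 mice given Matrigel alone, each collected at 1, 3, and 6 weeks post-inoculation (w p.i.). 4T1 is a metastatic mammary tumor cell line from BALB/c mice and carried firefly luciferase, whereas Py230 is a mammary tumor cell line from a C57BL/6 mouse that expressed polyoma middle T antigen under the mouse mammary tumor virus promoter. All mice were dams whose pups had been taken away, and the material went through the teat canal into the ducts of the third mammary gland, so every gland had been producing milk and was involuting when the experiment began. Each line was grown only in its own strain, so cell line and strain cannot be told apart between the tumors, and the Matrigel glands serve as the background of each strain. The labels number the 3 tumors or glands of a group and do not state that they came from separate mice, so p-values measure the spread between these samples.

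Milk proteins are made by the luminal (alveolar) epithelial cells of the mammary gland. Prolactin, acting through its receptor Prlr, Jak2 and the transcription factor Stat5, together with the factor Elf5, turns on their genes in late pregnancy and lactation, and the genes are turned down again when suckling stops. Caseins carry calcium and phosphate as micelles. Kappa-casein (Csn3) coats the micelle and keeps it soluble, and it differs in origin and structure from the calcium-sensitive caseins Csn1s1, Csn1s2a and Csn2 that form the core.

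The 4 casein genes lay within 266 kb of chromosome 5 (GRCm38/mm10, GENCODE M21). Csn1s1 was at chr5:87666208-87682578 on the plus strand, Csn2 at chr5:87692624-87699630 on the minus strand, Csn1s2a at chr5:87774567-87788797 on the plus strand and Csn3 at chr5:87925579-87932665 on the plus strand. Wap was at chr11:6635482-6638637, Lalba at chr15:98480400-98482721, Glycam1 at chr15:103562759-103565081 and Btn1a1 at chr13:23456992-23465901, all on the minus strand. Stat5 binds the palindrome TTCNNNGAA, which reads the same on both strands, and the RefSeq windows of 300 bases around gene starts (250 before and 50 after) were searched for it. Of the 8 genes, 6 had a window, 4 of these held the palindrome and 2 (Wap and Lalba) did not, while Csn3 and Btn1a1 had no entry. Over all genes, 2726 of 32851 windows (8.3%) held it. A match is a description of letters and not a measured binding site.

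The stretches with the palindrome in capitals are printed because 3 of these genes are the caseins that fell in tumors of both lines, as described further on (GRCm38.p6, 5′ to 3′ along each gene). The Csn1s1 sequence is the whole 250 bases before its start (chr5:87665958-87666207), in which the palindrome began at position -100 from the start. The others are 25 bases each, with the position at which the palindrome began, from Csn2 (chr5:87699502-87699526, minus strand, from position -93 of the RefSeq start, which lies inside the GENCODE gene, as does the stretch), Csn1s2a (chr5:87774462-87774486, from position 20 of the RefSeq start, which lies upstream of the GENCODE start) and Glycam1 (chr15:103565210-103565234, minus strand, from position -145). Csn1s1 and Csn1s2a held the same letters.
Csn1s1: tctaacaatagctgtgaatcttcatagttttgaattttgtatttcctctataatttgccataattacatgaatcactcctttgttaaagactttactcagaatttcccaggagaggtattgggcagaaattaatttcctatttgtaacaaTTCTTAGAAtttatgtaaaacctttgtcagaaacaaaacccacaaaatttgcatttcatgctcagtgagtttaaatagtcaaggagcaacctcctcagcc
Csn2: acgtagacTTCTTGGAAttgaaggg
Csn1s2a: atagtgctTTCTTAGAAttacaatg
Glycam1: caactcatTTCCCAGAAacaccaat

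The deposited value of a gene is a score and not a count. Each library was centred on 0 and scaled to an SD of 1 across its 21650 genes, and across 13567 well expressed genes 1 score unit spanned 2.78 log2 units of the authors' mean normalized count. That conversion is across genes and gives no fold change within a gene, so changes are given as differences in score. The depth reached per library is unknown from these values. By the authors' mean normalized count over all libraries, which is not corrected for gene length, the pooled level was 27170 for Csn3, 21660 for Csn1s1, 16480 for Csn2, 5056 for Btn1a1, 3481 for Csn1s2a, 1351 for Lalba and 160.3 for Wap, while Glycam1 stood at 5.375 and was close to the floor. Replicates of a group correlated at 0.947 or more over all genes. In 2 tumor libraries of 3 w p.i., 4T1 number 1 and Py230 number 1, the fat cell gene Adipoq was low for their groups (scores of 0.69 and 0.44, against 1.99 to 2.35 in the other 4), and results that rest on them are also given without them.

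At 1 w p.i. all 8 genes stood at or near the level of the Matrigel glands of the same strain. Csn1s1, an alpha-casein, scored 2.79, 2.85 and 2.71 in the 4T1 tumors and 3.05, 2.55 and 2.89 in the BALB/c glands. Csn2, beta-casein, scored 2.00, 1.70 and 1.78 in the Py230 tumors and 2.09, 1.49 and 1.90 in the C57BL/6 glands. The libraries of tumor and gland overlapped in both cases. None of the 8 genes passed the test in the 4T1 tumors against BALB/c glands, where 16.6% of all genes did (9.91% higher, 6.72% lower), and none in the Py230 tumors against C57BL/6 glands, where 0.00924% did (0% higher, 0.00924% lower; limma, Benjamini-Hochberg adjusted p under 0.05 over all genes). At an unadjusted p under 0.05 these counts were 1 (Csn2 in 4T1 tumors) and 0, where 7379 and 1547 of all genes passed. The differences ran from -0.22 (Btn1a1) to 0.38 (Csn2) in the 4T1 tumors and from -0.12 (Lalba) to 0.17 (Csn1s2a) in the Py230 tumors. The widest 95% intervals, those of Csn1s2a, reached from -0.52 to 0.32 and from -0.25 to 0.59, so the comparison does not resolve differences within them for this gene, and the interval of Csn2 in the 4T1 tumors ran from 0.00384 to 0.765.

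**Figure D1:**
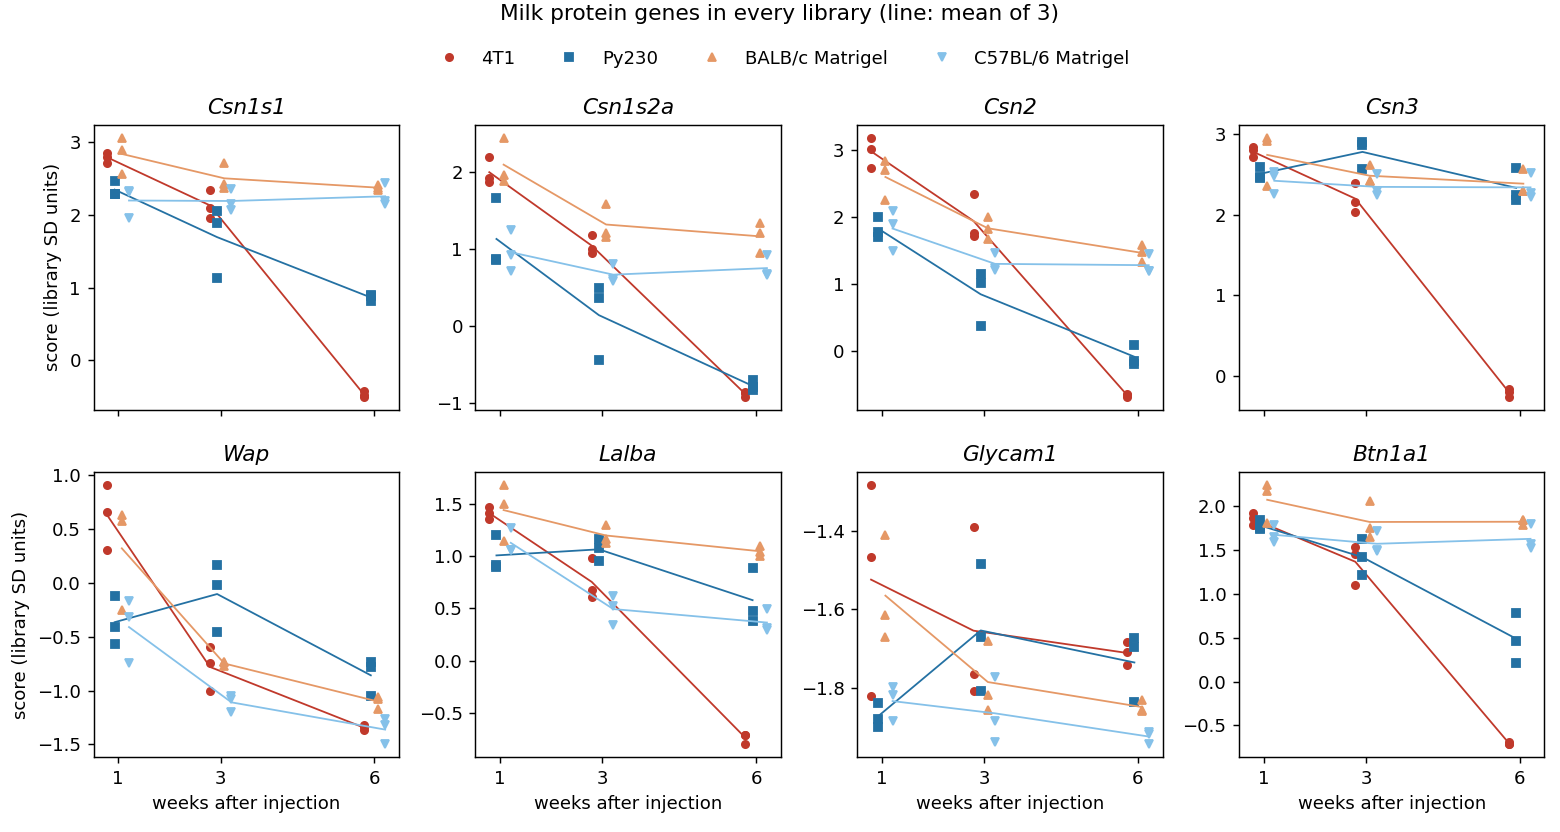
Score of each milk protein gene (vertical axis, in SD units of its library) against weeks after injection (horizontal axis), with 1 point per library, a line through the mean of 3, and a vertical scale of its own for each gene. The 4T1 tumors drop below every other group at 6 w p.i. for the 4 caseins, Lalba and Btn1a1, while the Py230 tumors keep Csn3 at gland level. For Csn1s2a the Py230 tumors of 6 w p.i. are nearly as low, and the difference of -0.11 between the tumors did not pass.

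The 4T1 tumors nevertheless carried more milk protein RNA than the Py230 tumors at 1 w p.i., and the glands of the 2 strains differed in the same direction. In the 4T1 tumors 6 of the 8 genes were higher and none was lower, where 19.4% of all genes passed the test (11% higher, 8.43% lower). Wap, the main whey protein of mouse milk, scored 0.91, 0.31 and 0.66 in 4T1 tumors and -0.57, -0.12 and -0.41 in Py230 tumors. These libraries did not overlap, and the difference was 0.99 (SE 0.19, adjusted p = 0.000715). Csn2 differed by 1.16 (SE 0.19, adjusted p = 0.00011) and Csn1s2a by 0.87 (adjusted p = 0.00485). The other differences were smaller and their calls less stable. Csn1s1 differed by 0.44 (adjusted p = 0.0499) and lost its call without any of the 6 libraries, Lalba differed by 0.40 (adjusted p = 0.0225) and lost it without any of 4, and Glycam1 differed by 0.35 (adjusted p = 0.0187) and lost it without any of 3. Csn3 (0.28, adjusted p = 0.141) and Btn1a1 (0.08, adjusted p = 0.723) did not pass. Between the Matrigel glands of the strains, 4 of 8 genes were higher in BALB/c, where 3.06% of all genes passed (1.57% higher, 1.49% lower): Csn1s2a by 1.14, Csn2 by 0.77, Wap by 0.73 and Csn1s1 by 0.64. With the glands subtracted from both models, none of the 8 differed between 4T1 and Py230 tumors, where 0.305% of all genes passed (0.24% higher, 0.0647% lower), at an adjusted or an unadjusted p under 0.05 (limma, 0 of 8 each), and the differences ran from -0.32 (Btn1a1) to 0.39 (Csn2). At the unadjusted threshold 3885 of all genes passed. These comparisons share their tumor libraries. The count of 6 fell to 3 without either of the 4T1 libraries numbered 1 and 3, and the count of 4 in the glands was 1 without the BALB/c library numbered 1 or 3 or the C57BL/6 library numbered 2, and 7 without the BALB/c library numbered 2. When only the gland libraries of this week were fitted, none of the 8 genes passed between the strains, where 219 of all genes did.

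In the Matrigel glands few of the later changes passed the test over all genes. From 1 to 3 w p.i. Wap fell in BALB/c glands (0.63, -0.25 and 0.58 at 1 w p.i. and -0.74, -0.74 and -0.77 at 3 w p.i., a difference of -1.07, adjusted p = 0.0431), where 0.0139% of all genes passed, all of them lower. Csn1s2a (-0.78, adjusted p = 0.481) and Csn2 (-0.77, adjusted p = 0.339) did not pass. At an unadjusted p under 0.05 the count was 5 of 8, where 755 of all genes passed. In C57BL/6 glands Lalba, alpha-lactalbumin, the protein with which galactosyltransferase makes lactose, fell over that time (from 1.27, 1.05 and 1.06 to 0.34, 0.52 and 0.62, a difference of -0.63, adjusted p = 0.0231), where 0.129% passed (0.0924% higher, 0.037% lower). The unadjusted count there was 3 of 8, where 1411 of all genes passed. The libraries of both weeks did not overlap for either gene, and this was not counted over all genes. Both calls were lost when single libraries were left out, that of Wap without the BALB/c library numbered 1 or 3 of 1 w p.i. or any of 3 w p.i., and that of Lalba without the C57BL/6 library numbered 1 or 2 of 1 w p.i. or any of 3 w p.i. Both were also lost when only the compared libraries were fitted, where 0 and 14 of all genes passed. From 3 to 6 w p.i. none of the 8 genes passed in either strain (0% and 0.217% of all genes passed). At an unadjusted p under 0.05 in limma, the count was 0 of the 8 genes in both strains. Over the whole table it was 1207 genes in BALB/c and 1643 in C57BL/6 glands. Between the strains Lalba was higher in BALB/c glands, by 0.70 at 3 w p.i. and 0.68 at 6 w p.i. (adjusted p = 0.000446 and 0.000618), and was 1 of 8 genes called at each time, where 3.77% (1.89% higher, 1.88% lower) and 3.84% (1.67% higher, 2.18% lower) of all genes passed. At 3 w p.i. Csn1s2a (0.65, adjusted p = 0.0811) and Csn2 (0.53, adjusted p = 0.131) did not pass. The unadjusted count was 3 of 8, where 3004 of all genes had an unadjusted p under 0.05. With the libraries of the compared groups fitted alone, 4 of the 8 genes were called, where 897 of all genes were.

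At 3 w p.i. some of the genes stood above the glands and others below them in the Py230 tumors. Wap scored 0.16, -0.02 and -0.46 in Py230 tumors and -1.20, -1.08 and -1.05 in C57BL/6 glands, every tumor library lying above every gland library (difference 1.01, SE 0.19, adjusted p = 0.000587). Lalba was higher by 0.57 and Csn3 by 0.43 (adjusted p = 0.00216 and 0.0229). Csn1s1 was lower by contrast, at 1.13, 1.89 and 2.05 against 2.07, 2.14 and 2.35, a difference of -0.50 (adjusted p = 0.0281). Csn1s2a (-0.53) and Csn2 (-0.46) did not pass (adjusted p = 0.0703 and 0.0829). In all, 3 genes were higher and 1 was lower, where 19.7% of all genes passed (12.8% higher, 6.9% lower). The lowest Csn1s1 value was that of the Py230 library numbered 1. Without it the difference of Csn1s1 was -0.22 and that of Csn3 was 0.37, neither passed, and 2 of 8 genes were called. The count was 2 without the C57BL/6 library numbered 2 and 7 without the Py230 library numbered 3. Fitted on the libraries of these groups alone, none of the 8 genes passed, where 36 of all genes did.

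In the 4T1 tumors of 3 w p.i. Lalba differed from BALB/c glands (0.61, 0.67 and 0.98 against 1.16, 1.13 and 1.30, a difference of -0.44, adjusted p = 0.0466), where 3.25% of all genes passed (2.1% higher, 1.15% lower). Btn1a1 differed by -0.45 and lay just outside the threshold (adjusted p = 0.0526). At an unadjusted p under 0.05 the count was 4 of 8, where 4590 of all genes passed. The call of Lalba was lost without the 4T1 library numbered 1 or without any of the 3 gland libraries, and the count was 2 without the 4T1 library numbered 3. Between the tumors themselves 5 genes were called, where 30.3% of all genes passed (11.9% higher, 18.5% lower), and they went both ways. Csn2 (1.10), Csn1s2a (0.90) and Csn1s1 (0.44) were higher in 4T1 tumors, and Wap (-0.68) and Csn3 (-0.58) were lower. With the glands subtracted, Wap (-1.04), Lalba (-1.01) and Csn3 (-0.72) were lower in 4T1 tumors and no gene was higher, where 9.15% of all genes passed (2.64% higher, 6.51% lower). Without the Py230 library numbered 1 these counts of 5 and 3 were 3 and 1. Without both tumor libraries numbered 1 they were 2 and 1, and the counts against the glands were 0 for 4T1 and 2 for Py230 tumors. Fitted on the compared libraries alone, none of the 8 genes passed in 4T1 tumors against glands or between the tumors. Of all genes, 0 and 434 passed there. In the same fit 1 gene passed with the glands subtracted, where 60 of all genes did.

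**Figure D2:**
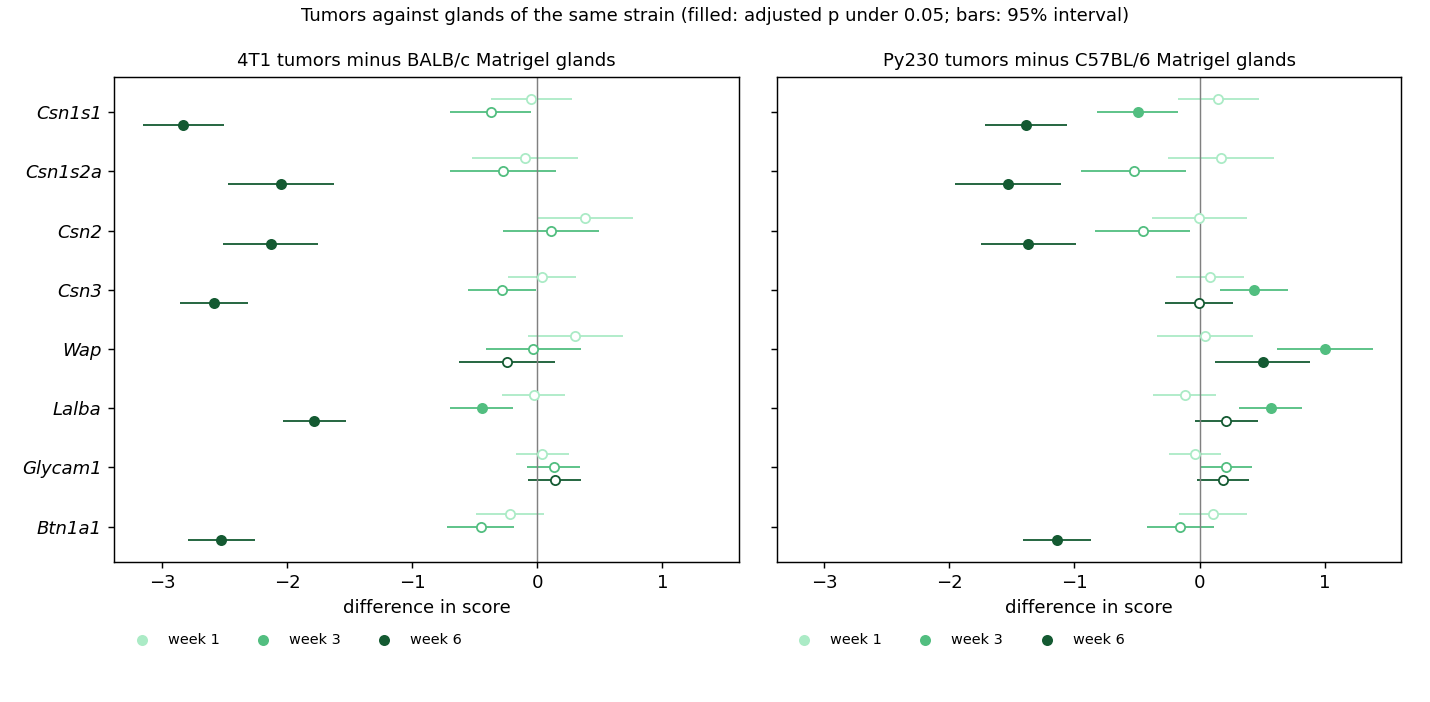
Difference in score between tumors and Matrigel glands of the same strain (horizontal axis) for each gene, by week, with 95% intervals as bars and filled points for an adjusted p under 0.05. At 6 w p.i. the 4T1 tumors (left) lie from 1.78 to 2.83 below their glands in 6 genes, and in the Py230 tumors (right) 4 genes lie below, Wap lies above, and Csn3, Lalba and Glycam1 did not pass.

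At 6 w p.i. the milk protein genes of the 4T1 tumors had dropped. Csn1s1 scored -0.47, -0.50 and -0.42 in the tumors and 2.37, 2.34 and 2.40 in BALB/c glands, a difference of -2.83 (SE 0.16, adjusted p = 3.23e-13). Csn3 scored -0.25, -0.16 and -0.19 against 2.29, 2.30 and 2.56, a difference of -2.58 (SE 0.13, adjusted p = 6.77e-14). For Btn1a1, butyrophilin, a membrane protein needed for the release of milk fat droplets, the scores were -0.71, -0.69 and -0.71 against 1.84, 1.84 and 1.79. Tumor and gland libraries lay far apart in all 3 genes, and such separation was not counted over all genes. Btn1a1 differed by -2.53, Csn2 by -2.13, Csn1s2a by -2.05 and Lalba by -1.78. In all, 6 of 8 genes were lower and none was higher, where 60.1% of all genes passed (38.6% higher, 21.5% lower). The median over the 8 genes was -2.09, against 0.07 over all genes.

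The remaining pair did not pass in the 4T1 tumors. Wap scored -1.34, -1.32 and -1.36 against -1.06, -1.17 and -1.07 in glands, where it had already declined, a difference of -0.24 (adjusted p = 0.268, 95% interval from -0.62 to 0.14). Glycam1, a mucin that is secreted into milk and also decorates the high endothelium of lymph nodes, scored -1.74, -1.68 and -1.71 against -1.86, -1.86 and -1.83 (difference 0.14, adjusted p = 0.248). With the libraries of these groups fitted alone, both passed, Wap as lower and Glycam1 as higher. Of all genes, 12430 passed in that fit, and Glycam1 was close to the floor in mean count. Glycam1 kept within -1.94 and -1.28 in all 36 libraries.

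In the Py230 tumors of 6 w p.i. the genes did not move together. Csn2 scored 0.08, -0.20 and -0.15 in the tumors and 1.45, 1.20 and 1.19 in C57BL/6 glands, a difference of -1.37 (SE 0.19, adjusted p = 2.16e-06). Csn1s2a, another alpha-casein, scored -0.83, -0.79 and -0.70 against 0.93, 0.66 and 0.68, a difference of -1.53 (adjusted p = 1.92e-06). Csn1s1 (-1.39) and Btn1a1 (-1.14) were lower as well (adjusted p = 2.39e-07 and 2.78e-07). In none of these 4 genes did tumor and gland libraries overlap, a property that was not counted over all genes. Csn3 by contrast scored 2.24, 2.18 and 2.58 in the tumors and 2.52, 2.23 and 2.27 in the glands, with the libraries intermingled and a difference of -0.01 (adjusted p = 0.975, 95% interval from -0.28 to 0.27). Lalba scored 0.48, 0.38 and 0.88 against 0.49, 0.31 and 0.29 (difference 0.21, adjusted p = 0.154). Wap was higher, at -0.78, -1.05 and -0.74 against -1.50, -1.27 and -1.32 (difference 0.50, adjusted p = 0.0274), and that call was lost without the Py230 library numbered 1 or 3 or the C57BL/6 library numbered 1. In all, 4 of 8 genes were lower and 1 was higher, where 47.6% of all genes passed (28.8% higher, 18.7% lower). The median over the 8 genes was -0.57, against 0.03 over all genes.

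Set against each other at 6 w p.i., the tumors differed most in Csn3, which was 2.53 lower in 4T1 than in Py230 tumors (SE 0.13, adjusted p = 5.38e-14). Csn1s1 was lower by a difference of -1.32, Lalba by -1.31, Btn1a1 by -1.19, Csn2 by -0.58 and Wap by -0.48. In all 6 genes were lower in 4T1 tumors and none was higher, where 40.8% of all genes passed (24.1% higher, 16.7% lower). Csn1s2a, which was low in both (-0.87, -0.86 and -0.91 in 4T1 tumors), differed by -0.11 (adjusted p = 0.721, 95% interval from -0.53 to 0.31). With the glands subtracted, 6 genes were again lower in 4T1 tumors, where 25.5% of all genes passed (14.4% higher, 11.1% lower): Csn3 by -2.58, Lalba by -2.00, Csn1s1 by -1.44, Btn1a1 by -1.39, Csn2 by -0.76 and Wap by -0.74. The difference of Csn2 between the tumors did not pass without the Py230 library numbered 1, and that of Wap did not pass without any single library of the 6 other than the Py230 library numbered 2. With the glands subtracted, the calls of Csn2 and Wap were lost in turn without 7 and 10 of the 12 libraries.

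The change of this difference over time was tested directly. From 1 to 6 w p.i. it shifted toward lower values in 4T1 tumors for 7 of 8 genes, where 27.4% of all genes passed (15% higher, 12.4% lower), from -0.97 in Csn1s2a to -2.81 in Csn3. Glycam1 did not pass (-0.32, adjusted p = 0.0968). From 3 to 6 w p.i. it shifted for 6 of 8 genes, where 26.7% of all genes passed (17.8% higher, 8.88% lower), from -1.0 in Lalba to -1.95 in Csn3. Wap (0.19, adjusted p = 0.625) and Glycam1 (0.02, adjusted p = 0.92) did not pass. The 2 tests share the libraries of 6 w p.i.

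Within the 4T1 tumors, 6 genes fell from 1 to 3 w p.i., where 0.628% of all genes passed (0.254% higher, 0.374% lower), by differences of -0.58 (Csn3) to -1.40 (Wap). The BALB/c glands without tumor cells declined over that time as well. The median difference of the 8 genes was -0.30 in these glands and -0.66 in the 4T1 tumors. Mean Wap went from 0.32 to -0.75 in the glands and from 0.62 to -0.78 in the tumors. Whether tumors and glands differed in this change was not tested. From 3 to 6 w p.i. 7 genes fell in the 4T1 tumors, where 53% of all genes passed (34.2% higher, 18.8% lower). The later differences were -2.61 in Csn2, -2.59 in Csn1s1, -2.40 in Csn3 and -2.07 in Btn1a1, and that of Wap was -0.56. The larger part of the drop lay in the later interval for these 4 genes and in the earlier one for Wap. The count of 6 was 1 without the 4T1 libraries numbered 1 or 3 of 1 w p.i. or number 2 of 3 w p.i., and 3 without number 3 of 3 w p.i. Within the Py230 tumors Csn1s2a (-0.99), Csn2 (-0.98) and Csn1s1 (-0.65) fell from 1 to 3 w p.i., where 20% of all genes passed (12.8% higher, 7.17% lower), and the count was 6 without the Py230 library numbered 3 of 3 w p.i. From 3 to 6 w p.i. 7 genes fell, where 6.03% of all genes passed (3.96% higher, 2.06% lower), by -0.45 (Csn3) to -0.94 (Csn2), and the count was 3 without the Py230 library numbered 2 of 3 w p.i. and 4 without number 2 of 6 w p.i. When only the compared libraries were fitted, none of these falls passed except among those of 4T1 tumors from 3 to 6 w p.i. Of all genes, 0 (4T1) and 3 (Py230) passed from 1 to 3 w p.i., and 92 in Py230 tumors from 3 to 6 w p.i.

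The 12 group means of each gene were ordered and neighbours compared by the range of their libraries. For Csn3, 10 of 11 neighbouring pairs overlapped, and only the 4T1 tumors of 6 w p.i. stood apart, below all other groups. For Csn1s1 8 of 11 pairs overlapped, and the Py230 tumors of 6 w p.i. (mean 0.86) and the 4T1 tumors of 6 w p.i. (mean -0.46) each stood apart below the rest. Csn2, Csn1s2a and Btn1a1 ended with the same 2 groups in the same order, both apart, with means of -0.09 and -0.67 for Csn2. In Lalba the 4T1 tumors of 6 w p.i. alone stood apart at the bottom, under C57BL/6 glands. Wap had the 4T1 tumors and BALB/c glands of 1 w p.i. at the top (means 0.62 and 0.32, overlapping) and the 4T1 tumors and C57BL/6 glands of 6 w p.i. at the bottom (-1.34 and -1.36, overlapping).

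The separation of Csn3 from the other caseins could be read within single libraries, as the difference between 2 scores of the same library, a comparison chosen after the values were seen. Scores are not corrected for gene length, so only the shift of this difference between libraries is described. In the 18 Matrigel glands Csn3 minus Csn2 lay between 0.104 and 1.23, with a median of 0.754. In the Py230 tumors it was 0.586, 0.771 and 0.675 at 1 w p.i., 2.53, 1.85 and 1.42 at 3 w p.i. and 2.16, 2.38 and 2.73 at 6 w p.i. All 6 later Py230 libraries thus lay above every gland. Against C57BL/6 glands of the same week the mean shifts were 0.0868, 0.889 and 1.36, given as a description. An exact permutation test of these shifts gave p = 0.4, 0.1 and 0.1. Its smallest possible p with 3 libraries per group is 0.1, so it cannot decide and no conclusion is drawn from it. In the 4T1 tumors of 6 w p.i. Csn3 minus Csn2 was 0.398, 0.530 and 0.467, below the 0.710, 0.815 and 1.23 of BALB/c glands of the same week. Csn3 minus Csn1s1 behaved likewise in the Py230 tumors, at 0.129 to 0.187 at 1 w p.i. and 1.36 to 1.68 at 6 w p.i. In the 4T1 tumors the direction depended on the casein. At 6 w p.i. Csn3 minus Csn1s1 was 0.215, 0.340 and 0.225 there, above the -0.0736, -0.0398 and 0.158 of BALB/c glands. Csn3 minus Csn1s2a was 0.618, 0.699 and 0.724, below the 0.944, 1.09 and 1.61 of those glands.

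**Figure D3:**
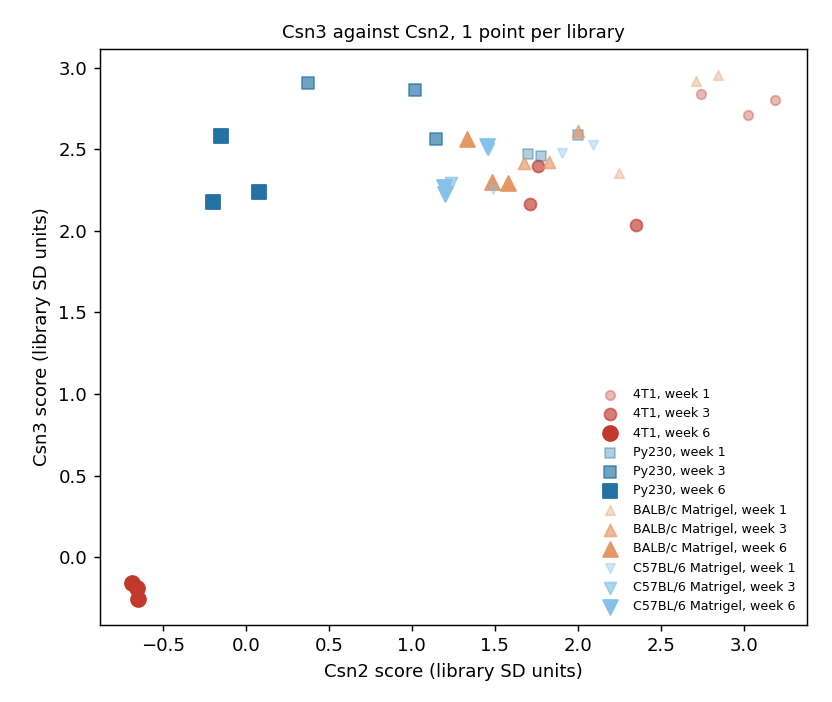
Score of Csn3 (vertical axis) against score of Csn2 (horizontal axis), 1 point per library, in SD units of the library, with larger and darker points for later weeks. The 4T1 tumors of 6 w p.i. lie alone at the lower left with both genes low, and the Py230 tumors of 3 and 6 w p.i. lie at the upper left, with Csn3 between 2.18 and 2.91 and Csn2 between -0.20 and 1.14.

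Other secreted milk proteins were taken from a list of 12 genes, of which 11 were matched. The twelfth, transferrin, had been entered under a symbol that the table does not use, and is not in these counts. The shares over all genes at 6 w p.i. were 38.6% higher and 21.5% lower in 4T1 tumors against glands, and 28.8% higher and 18.7% lower in Py230 tumors against glands. In 4T1 tumors of 6 w p.i. 7 were lower and 1 was higher than in BALB/c glands. The mucins Muc15 (-2.19) and Muc1 (-1.36), the iron-binding lactoferrin Ltf (-2.15) and the milk lipase Cel (-1.66) had the smallest p-values. In Py230 tumors 4 were lower and 3 were higher than in C57BL/6 glands. Ltf (-0.89), Cel (-0.74) and Muc15 (-0.70) fell, whereas the whey acidic protein family member Wfdc18 rose by 0.96. Wfdc18 scored 1.66, 1.48 and 1.98 in those tumors against 1.05, 0.55 and 0.64 in glands, and -0.81, -0.67 and -0.79 in the 4T1 tumors, so that it was the most different of the list between the tumors (-2.46, adjusted p = 6.21e-12). The list's median difference from glands was -1.25 in 4T1 and 0.03 in Py230 tumors.

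Genes of milk fat, lactose and transport (12 measured) were mostly lower in 4T1 tumors and went both ways in Py230 tumors. At 6 w p.i. 8 were lower and 2 higher than in BALB/c glands, where 21.5% of all genes were lower and 38.6% higher. The lower ones included the transporter Abcg2 (-0.65), the folate receptor Folr1 (-1.21) and the lipogenic regulator Thrsp (-2.52), while the glucose transporter Slc2a1 was higher (0.77). In Py230 tumors 6 were lower and 5 higher, where 18.7% of all genes were lower and 28.8% higher. The fat droplet protein Xdh (-0.47) and fatty acid synthase Fasn (-1.24) were lower. The galactosyltransferase B4galt1 (0.27), the partner of Lalba, and the medium-chain thioesterase Olah (0.49) were higher. Fasn and Thrsp are also abundant in fat cells.

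Among the regulators of lactation (12 measured), the prolactin receptor and epithelial factors were lower in the 4T1 tumors. In 4T1 tumors of 6 w p.i. 8 were lower and 2 higher than in BALB/c glands, where 60.1% of all genes passed (38.6% higher, 21.5% lower). Elf5 scored -0.80, -0.75 and -0.80 against 1.09, 1.08 and 1.32 in glands (difference -1.95, adjusted p = 2.47e-15), and Prlr -0.47, -0.57 and -0.27 against 1.89, 2.02 and 2.16 (difference -2.46, adjusted p = 1e-12). Tfap2c (-1.39) and Egfr (-0.82) followed. In Py230 tumors 5 were lower and 1 was higher, where 47.6% of all genes passed (28.8% higher, 18.7% lower). In both directions together the number called was near that share. The lower ones included Stat5b (-0.33) and the insulin receptor Insr (-0.36), and the higher one was Tfap2c (0.85). Elf5 and Prlr, looked up there after their values in 4T1 tumors were seen, stayed with the glands in Py230 tumors, at 1.14, 1.05 and 1.30 for Elf5 against 1.31, 1.13 and 1.10 (difference -0.01, adjusted p = 0.913) and at 1.95, 1.86 and 2.04 for Prlr against 2.23, 1.97 and 2.09 (difference -0.15, adjusted p = 0.427). Stat5a, also looked up, was lower by a difference of -0.26 in each. Of 14 involution genes, 5 were higher and 3 lower in 4T1 tumors and 3 higher and 5 lower in Py230 tumors, close to the 60.1% and 47.6% of all genes that passed, Igfbp5 being lower in 4T1 tumors by -1.79.

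Whole tumors and glands were sequenced, so fewer milk-producing cells and less milk RNA per cell cannot be told apart. The markers of some other cell types also fell at 6 w p.i., and those of others did not. Over all genes, 38.6% were higher and 21.5% lower than in glands in 4T1 tumors, and 28.8% and 18.7% in Py230 tumors. All 8 adipocyte markers were lower than in glands in both tumors, and the mean score of that list ran from -0.42 to -0.09 in 4T1 tumors (1.62 to 1.93 in BALB/c glands) and from -0.22 to 0.99 in Py230 tumors (1.88 to 2.24 in C57BL/6 glands). All 8 myoepithelial markers were lower in 4T1 tumors, and 2 of 8 in Py230 tumors. The 12 luminal epithelial markers were mixed in 4T1 tumors, with 3 higher and 4 lower and a mean score of 0.81 to 1.21 against 1.15 to 1.42, and in Py230 tumors 5 were higher and none lower, at 1.41 to 1.57 against 1.16 to 1.43. The pan-epithelial gene Epcam, named after its values were seen, scored 1.90, 1.11 and 1.85 in 4T1 tumors. It is given without its gland values, and nothing is read from it, since the luminal list was mixed in these tumors. Of 8 leukocyte markers, 4 were higher in 4T1 tumors, where 38.6% of all genes were, and none in Py230 tumors, and of 8 skeletal muscle markers 8 were lower in 4T1 tumors and none passed in Py230 tumors. Among lymph node B cell markers (7 measured) 2 were higher in 4T1 and 1 was lower in Py230 tumors, and among lymph node endothelium and stroma markers (7 measured, Glycam1 among them) 2 were lower in each and 1 was higher in Py230 tumors. At 3 w p.i. the Py230 library numbered 1, with the lowest Csn1s1, Csn1s2a and Csn2 of its group and the highest Csn3, had an adipocyte mean score of 0.26, against up to 1.96 in the others. The part of these cell types in the falls of milk protein RNA was not tested.

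**Figure D4:**
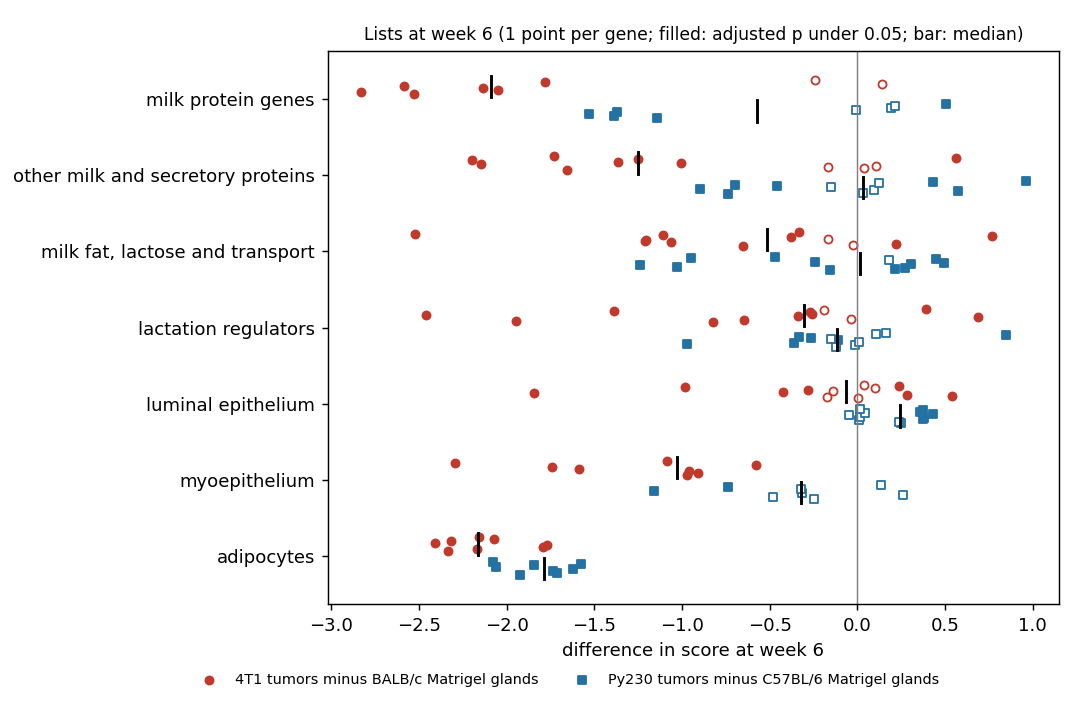
Difference in score from Matrigel glands of the same strain at 6 w p.i. (horizontal axis) for every gene of 7 lists (rows), with 4T1 tumors as circles and Py230 tumors as squares, filled for an adjusted p under 0.05, and a vertical bar at the median of each list. The milk protein medians are -2.09 and -0.57, whereas all adipocyte genes lie below 0 in both tumors.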

How the data were processed

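RNA was isolated from frozen tumors and glands. The authors sequenced stranded libraries, aligned the read pairs by STAR (mm10), summed reads over genes and used DESeq2 for normalization (no versions and no annotation are given in the sources used here). The deposited expression values are scores, standardized within each library by the authors in a step that is not described. The authors' mean normalized count per gene, a value over all libraries, was used as a level, and the authors' deposited fold changes and p-values were not used. Counts and depth per library are unknown, so no counting error could be given.

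Scores were fitted with limma 3.58.1 (R 4.3.3), 1 mean per group over 36 libraries, with mean-variance trend and robust moderation, in 25 comparisons, and p-values were adjusted over 21650 genes (threshold 0.05). The fit was tested on simulated data. Genes were named by rule: the 8 genes in every comparison, at most 4 genes with the smallest p per other list and the 10 most alike genes whose authors' mean count was 100 or more. The members and lists were chosen with earlier results of these data known. Alternatives were another scaling (quantile, median and MAD), a minimum mean normalized count of 10, no trend or robust moderation, only the compared libraries, a replicate block, and leaving out libraries. Copies of a library were not found (highest correlation 0.993).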

Additional observations from a re-analysis of the deposited data

Results flagged for a closer look

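Differences between the models that changed with time or remained after the glands were subtracted are listed here as values, each from the test of the difference itself. The difference between 4T1 and Py230 tumors shifted from 1 to 6 w p.i. by -2.81 in Csn3, -1.77 in Csn1s1, -1.73 in Csn2, -1.72 in Lalba, -1.47 in Wap, -1.27 in Btn1a1 and -0.974 in Csn1s2a (adjusted p from 1.44e-10 for Csn3 to 0.0134 for Csn1s2a). From 3 to 6 w p.i. it shifted by -1.95 in Csn3, -1.76 in Csn1s1, -1.67 in Csn2, -1.14 in Btn1a1, -1.01 in Csn1s2a and -1.0 in Lalba (adjusted p from 4.12e-08 for Csn3 to 0.011 for Csn1s2a). With the Matrigel glands of each strain subtracted, 4T1 tumors differed from Py230 tumors at 3 w p.i. by -1.04 in Wap, -1.01 in Lalba and -0.717 in Csn3 (adjusted p of 0.0155, 0.000855 and 0.0183), and at 6 w p.i. by -2.58 in Csn3, -2.00 in Lalba, -1.44 in Csn1s1, -1.39 in Btn1a1, -0.761 in Csn2 and -0.745 in Wap (adjusted p from 2.51e-10 for Csn3 to 0.0374 for Wap). The tests share libraries, and cell line and strain cannot be told apart in any of them.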

How the results depend on the processing

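Over all alternatives, the differences of single genes kept their side of the threshold in 2481 cases, newly passed in 31 and no longer passed in 175. No called difference changed sign. Differences that did not pass could change sign, as that of Csn3 in Py230 tumors against glands at 6 w p.i. (from -0.13 to 0.20). Counts of the 8 genes called moved by over 1.5 times mainly when only the compared libraries were fitted. That fit takes the spread from those libraries alone and has fewer degrees of freedom. Between 4T1 and Py230 tumors it called 434 of all genes in place of 6569 at 3 w p.i. At 6 w p.i. it called 9910 in place of 8837, and the cause was not tested. That fit gave 0 for 4T1 against Py230 tumors at 3 w p.i., for both tumors against glands at 3 w p.i., for the strains at 1 w p.i., for 4T1 and Py230 tumors from 1 to 3 w p.i., for Py230 tumors from 3 to 6 w p.i. and for both glands from 1 to 3 w p.i., 1 for the models with glands subtracted at 3 w p.i., and 4 for the strains at 3 w p.i. A minimum mean normalized count of 10 gave 2 for 4T1 tumors against glands at 3 w p.i., and it and the median and MAD scaling each gave 0 for BALB/c glands from 1 to 3 w p.i. Leaving out both tumor libraries numbered 1 of 3 w p.i., chosen after seeing the data, gave at 3 w p.i. 2 for 4T1 against Py230 tumors, 1 with glands subtracted, 0 for 4T1 and 2 for Py230 tumors against glands.

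Leaving out 1 library at a time, the counts ran for 4T1 against Py230 tumors from 3 to 5 at 1 w p.i., from 3 to 6 at 3 w p.i. and from 4 to 6 at 6 w p.i., for the shift from 1 to 6 w p.i. from 7 to 8, with glands subtracted from 1 to 3 at 3 w p.i. and from 4 to 6 at 6 w p.i., for 4T1 tumors against glands from 0 to 2 at 3 w p.i. and 6 throughout at 6 w p.i., for Py230 tumors against glands from 2 to 7 at 3 w p.i. and from 4 to 5 at 6 w p.i., and for the strains from 1 to 7 at 1 w p.i. Over time they ran from 1 to 6 and from 6 to 7 in 4T1 tumors, from 2 to 6 and from 3 to 7 in Py230 tumors, and from 0 to 1 in either gland from 1 to 3 w p.i. With the group means removed, 17 of 54 pairs of libraries with the same week and number correlated at over 0.1 (range -0.543 to 0.789). Pairs with different numbers were not compared, so whether replicate numbers pair the libraries could not be told. A replicate block gave 2 in place of 1 for 4T1 tumors against glands at 3 w p.i. and moved no other count by over 1.5 times. Median and MAD scaling moved the share of higher genes among all called between 4T1 and Py230 tumors from 39.1% to 49.4% at 3 w p.i., from 59.1% to 71% at 6 w p.i. and, with glands subtracted, from 56.4% to 69% at 6 w p.i., and under it Wap (-0.31) no longer passed between the tumors at 6 w p.i. The cause of these changes was not tested. With 3 libraries per group and unknown depth, differences within the intervals given could not be resolved.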

Other observations

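The genes whose scores followed the mean of the 8 milk protein genes most closely over the 36 libraries, among 11918 genes with a symbol and a mean normalized count of at least 100, were Muc1 (Pearson r 0.962), Unc5cl (0.958), Ltf (0.955), Muc15 (0.952), Clca3a1 (0.919), Cel (0.912), Clic6 (0.911), Tspan33 (0.91), Clca3a2 (0.907) and Trf (0.907). The correlation is a description, since the points share libraries, groups and the falls in the tumors of 6 w p.i. Muc1, Ltf, Muc15 and Cel were in the list of other milk proteins. Trf, transferrin, is an iron carrier of milk and blood and had mean scores of 1.17 in 4T1 tumors of 6 w p.i., 1.92 in Py230 tumors and 2.09 and 2.00 in the glands of BALB/c and C57BL/6 mice. Unc5cl had means of -1.06, -0.43, 0.00768 and -0.321 in those groups.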
